A study of Mus musculus with 9 samples.

Results

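The major urinary proteins (MUPs) of mouse are small secreted lipocalins made mainly by hepatocytes. The 10 genes described here are *Mup1*, *Mup2*, *Mup3*, *Mup7*, *Mup10*, *Mup11*, *Mup14*, *Mup17*, *Mup20* and *Mup21*. They were picked by gene symbol out of the 51912 genes listed for each liver. RNA of 9 livers was sequenced, from fasted mice of the genotype Apoe-/-Ndst1 f/f Alb-Cre+ on the C57Bl/6 background. These mice lack apoE everywhere and the heparan sulfate sulfotransferase Ndst1 in hepatocytes, where the albumin promoter drives Cre. Both groups carried these alleles and differed in the antisense oligonucleotide (ASO) injected weekly, an apoC-III ASO against the *Apoc3* message (5 livers) or a control ASO (4 livers), with age, sex and diet not given in the sources used here. The study asked what apoC-III, a lipoprotein protein that slows triglyceride clearance, does when apoE is absent, and for the MUPs the comparison asks whether their messages differed between ASO groups.

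MUPs leave the hepatocyte by secretion, pass from plasma into urine and carry volatile pheromones in a β-barrel pocket. The genes form a cluster of recent duplicates, they are higher in male than in female liver, and the pulses of growth hormone acting through the receptor Ghr, the kinase Jak2 and the transcription factor Stat5b drive their transcription. *Mup20* encodes darcin, a male pheromone that attracts females, and the other members bind similar small ligands.

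Levels are TPM, that is transcripts per 1000000, as deposited for each gene. TPM divides reads by transcript length, so genes can be compared within a liver. The depth is unknown, so the counting error of a single liver's value cannot be estimated. Most of the total went to the noncoding 7SL RNA genes *Rn7s1* and *Rn7s2*, between 64.0% and 83.6% of the TPM of a liver. Nuclear protein-coding genes took 3.03% to 5.31% in the apoC-III ASO group and 1.94% to 8.64% in the control ASO group. A family total is therefore also given as a share of the protein-coding TPM. For fold changes a second scale was used, called protein-coding rescaling, in which the protein-coding TPM of each liver were brought to the same total and divided by a median-of-ratios factor. Control ASO liver 4 had the lowest protein-coding share and the lowest median-of-ratios factor of all genes (0.217, against 0.638 to 1.81 in the other 8 livers), and members' fold changes are also given without it. *Apoc3* was listed at 27, 28, 16, 32 and 14 TPM in the apoC-III ASO livers and at 271, 200, 184 and 41 TPM in the control ASO livers, and the groups did not overlap. In the limma test used below, *Apoc3* had a log2 fold change of -2.62 with an adjusted p of 0.104 on TPM as deposited, so the targeted gene itself was not called on that scale, and -3.01 with an adjusted p of 0.000383 after protein-coding rescaling.

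The 10 members lie on chromosome 4 (GRCm38), all on the minus strand, and are annotated as protein coding in GENCODE M21. *Mup7*, at chr4:60066469-60070475, comes first, followed by *Mup2*, *Mup1*, *Mup10*, *Mup11*, *Mup14* (chr4:61300023-61304000) and *Mup17*. *Mup20* (chr4:62050234-62054158), *Mup3* (chr4:62083476-62087342) and *Mup21* (chr4:62147932-62150863) stand at the far end. The table also lists 11 other genes with a symbol made of Mup and a number, 27 MUP pseudogenes, and *Gm21320* (ENSMUSG00000110439, chr4:60817589-60821463), which GENCODE M21 calls *Mup22*. The whole family is counted below as 22 genes, that is the 10 members, the 11 others and *Gm21320*.

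How far a read can be assigned to 1 of these genes depends on their sequences. A stretch of 60 bases of the coding sequence is shown to make this visible, taken from GENCODE M21 transcripts (GRCm38) and written 5′ to 3′ on the coding strand. Capitals mark the bases that differ from *Mup1*, and 18 of the 60 positions vary among the 12 genes compared.
Mup1, and letter for letter Mup2, Mup11 and Mup9 (chr4:60501283-60501342 in Mup1): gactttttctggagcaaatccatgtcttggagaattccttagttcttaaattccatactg
Mup7, and letter for letter Mup17 (chr4:60069734-60069793 in Mup7): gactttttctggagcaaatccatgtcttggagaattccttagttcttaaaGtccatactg
Mup10, and letter for letter Gm21320 (chr4:60581522-60581581 in Mup10): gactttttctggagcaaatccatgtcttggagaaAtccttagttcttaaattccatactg
Mup14 (chr4:61303323-61303382): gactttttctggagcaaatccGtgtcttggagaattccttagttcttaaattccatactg
Mup20 (chr4:62053481-62053540): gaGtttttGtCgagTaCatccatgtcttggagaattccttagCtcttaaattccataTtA
Mup3 (chr4:62086801-62086860): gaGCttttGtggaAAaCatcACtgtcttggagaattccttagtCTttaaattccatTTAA
Mup21 (chr4:62150196-62150255): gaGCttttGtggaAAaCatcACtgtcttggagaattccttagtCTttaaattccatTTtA

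The 12 genes had 7 distinct sequences in this stretch. *Mup7*, *Mup10* and *Mup14* each carried 1 difference from *Mup1*, whereas *Mup20* carried 8, *Mup21* carried 13 and *Mup3* carried 14. Over the whole coding sequence, *Mup1*, *Mup2*, *Mup7*, *Mup10*, *Mup11*, *Mup14* and *Mup17* were 98.4% to 99.5% identical in all 21 pairs. These 7 are called the similar members below. *Mup20* was 90.1% to 91.4% identical to them, *Mup21* 83.7% to 84.8% and *Mup3* 82.2% to 83.4%. *Mup3* and *Mup21* shared 94.8% with each other.

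The promoters followed the same division. RefSeq holds a promoter of 300 bases (250 before the start and 50 after) for 8 of the 10 members, not for *Mup1* and *Mup20*. The 6 similar members among these were 93.6% to 99.6% identical over the aligned part in 15 pairs, against 83.0% to 88.6% between them and *Mup3* or *Mup21*, and 93.9% between *Mup3* and *Mup21*.

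Uniqueness was measured as the share of a gene's 31-base words found in the transcripts of no other gene. It was 69.9% for *Mup3*, 66.2% for *Mup21*, 35.5% for *Mup20*, 29.8% for *Mup1* and 21.3% for *Mup2*. The other similar members had fewer such words, with 16.8% for *Mup10*, 16.7% for *Mup11*, 13.8% for *Mup17*, 10.8% for *Mup14* and 9.98% for *Mup7*. *Gm21320* had none, and 95.1% of its words also occur in *Mup10*. Values of *Mup3* and *Mup21* therefore rest mostly on sequence of their own, while values of single similar members are uncertain. Their sum is less so, but it shares sequence with genes outside the 10, as 72.15% of the words of *Mup10* occur in *Mup9*. The 10 members made up 57.1% to 92.8% of the whole family sum in a liver. The part that reads passing between copies had in this range was not tested.

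*Mup14* was the most abundant member and the most abundant of all protein-coding genes by its mean share of the protein-coding TPM (14.02%). It was listed at 1526, 3117, 5649, 8959 and 3804 TPM in the apoC-III ASO livers and at 18162, 4718, 11842 and 4180 TPM in the control ASO livers. The control ASO livers 1 and 3 stood above all 5 apoC-III ASO livers, and the other 2 lay within their range.

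*Mup7* and *Mup1* came next among the members. *Mup7* was listed at 1039, 1239, 1955, 3235 and 1137 TPM with the apoC-III ASO and at 5444, 1819, 2972 and 913 TPM with the control ASO. *Mup1* was listed at 1497, 1499, 1334, 1802 and 1812 TPM against 4417, 2216, 2505 and 835 TPM. For *Mup1* 3 control ASO livers were above every apoC-III ASO liver, and control ASO liver 4 was below every one of them. By mean share of protein-coding TPM, *Mup7* (4.36%) and *Mup1* (4.10%) ranked 3 and 4 among protein-coding genes, ahead of albumin (*Alb*, 2.44%).

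*Mup3* and *Mup20* were the most abundant members outside the similar group. *Mup3* was listed at 530, 544, 404, 878 and 350 TPM with the apoC-III ASO and at 972, 535, 602 and 202 TPM with the control ASO. *Mup20* was listed at 437, 445, 643, 923 and 363 TPM against 834, 429, 702 and 139 TPM. Neither gene separated the groups, and in both the lowest liver was control ASO liver 4.

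*Mup2* and *Mup17*, both similar members, were of middle level. *Mup2* was listed at 44.4, 113, 311, 227 and 278 TPM with the apoC-III ASO and at 356, 176, 222 and 463 TPM with the control ASO. *Mup17* was listed at 59.9, 181, 254, 204 and 356 TPM against 821, 287, 347 and 202 TPM. The lowest liver for both was apoC-III ASO liver 1, and the groups overlapped.

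*Mup21* and *Mup11* were the lowest of the 10. *Mup21* was listed at 78.4, 54.8, 70.2, 115 and 29.9 TPM with the apoC-III ASO and at 115, 56.9, 84.8 and 37.8 TPM with the control ASO. *Mup11* was listed at 16.8, 33.3, 47.1, 78.2 and 27.6 TPM against 118, 71.0, 52.9 and 25.1 TPM. Both genes overlapped between groups.

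**Figure D1:**
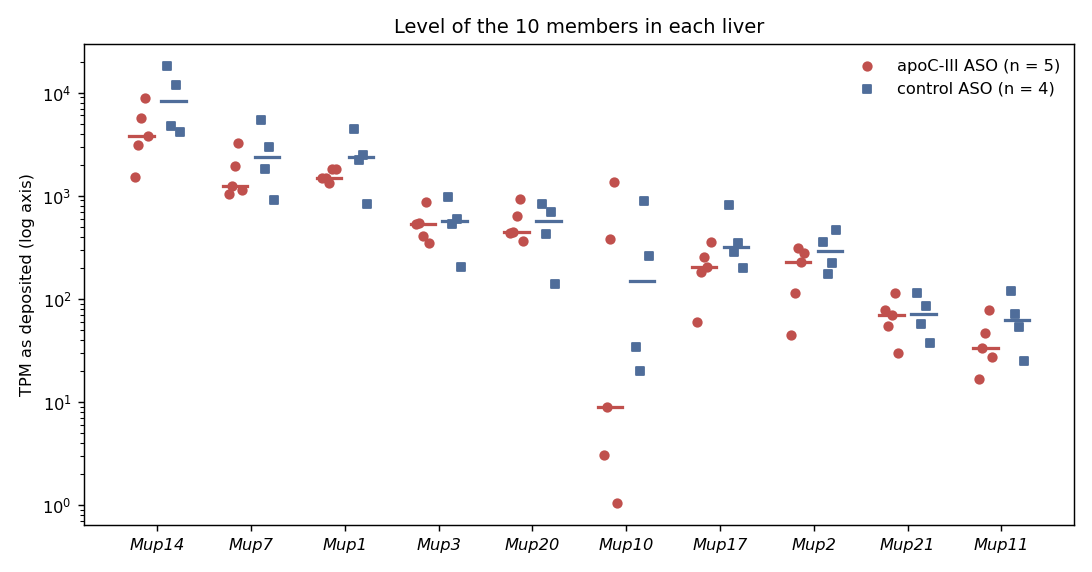
TPM as deposited of each member on a log axis, 1 point per liver, with apoC-III ASO livers as circles (n = 5), control ASO livers as squares (n = 4) and a line at each group's median. The groups overlap for all 10 members, and *Mup10* runs from 1.05 to 1360 TPM.

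*Mup10* behaved unlike the other members. It was listed at 3.06, 8.94, 382, 1360 and 1.05 TPM in the apoC-III ASO livers and at 34.5, 19.9, 895 and 260 TPM in the control ASO livers. Its near-identical copy *Gm21320* was listed at 1714, 2952, 0, 0 and 2359 TPM with the apoC-III ASO and at 3457, 3933, 0 and 0 TPM with the control ASO, where 0 includes values too small to print. In 4 livers, numbers 3 and 4 of each group, *Mup10* was high and *Gm21320* was at 0, and in the other 5 *Gm21320* was high and *Mup10* was at most 34.5 TPM. Their coding sequences were 99.3% identical. The split fell across both ASO groups alike, and the sum of the 2 genes was 1717, 2960, 382, 1360 and 2360 TPM against 3492, 3953, 895 and 260 TPM. The part that the division of reads between copies had in this was not tested.

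**Figure D2:**
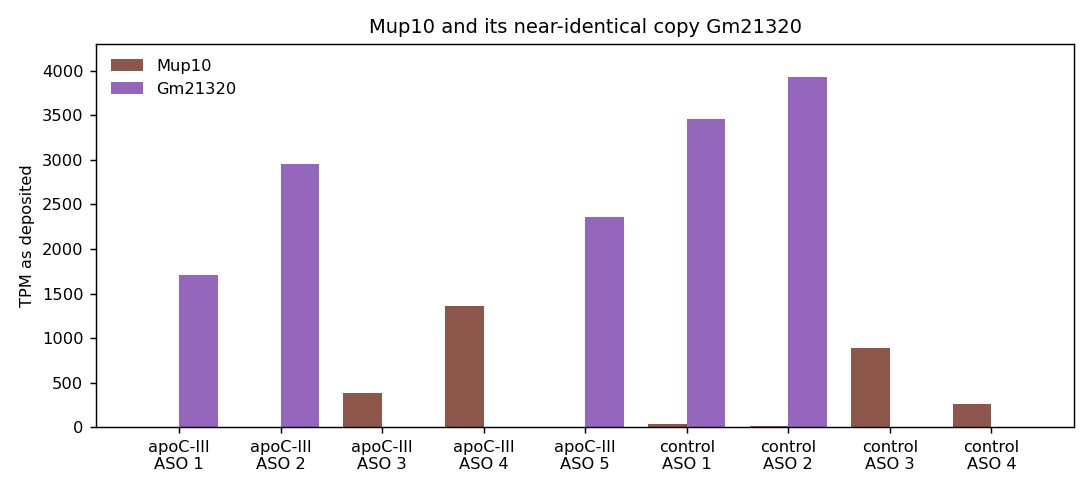
TPM as deposited of *Mup10* and *Gm21320* in each of the 9 livers, as paired bars. In livers 3 and 4 of both groups *Mup10* carries the signal (260 to 1360 TPM) and in the other 5 *Gm21320* does (1714 to 3933 TPM).

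The spread between livers differed among the members. After protein-coding rescaling, the highest liver was 742 times the lowest for *Mup10*, 77.7 times for *Mup2*, 25.1 times for *Mup17* and 20.4 times for *Mup14*. It was 11.2 times for *Mup11*, 6.55 times for *Mup7*, 4.72 times for *Mup21*, 4.16 times for *Mup1*, 2.94 times for *Mup20* and 2.84 times for *Mup3*. Without control ASO liver 4 the ratio was 722 for *Mup10*, 15.6 for *Mup2*, 14.8 for *Mup17*, 10.6 for *Mup14*, 6.49 for *Mup11* and 4.69 for *Mup7*, and from 2.30 to 3.02 for the other 4. The 4 members with the most sequence of their own, *Mup3*, *Mup21*, *Mup20* and *Mup1*, were the 4 with the smallest spread, with and without that liver. The order is a description over 10 genes that share the same livers, and *Mup7*, with the fewest unique words, followed directly after them.

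**Figure D3:**
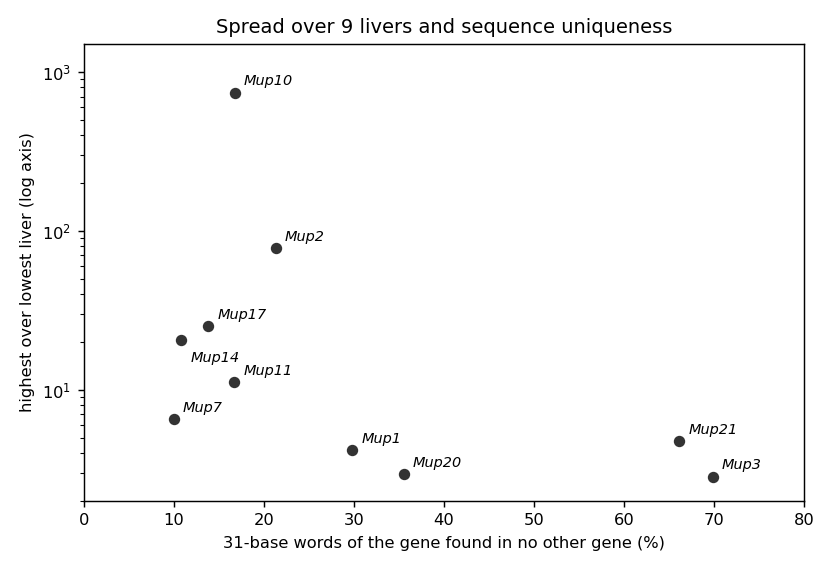
Ratio of the highest to the lowest of the 9 livers after protein-coding rescaling (log axis) against the percentage of each member's 31-base words found in no other gene, 1 point per member. The 4 members with 29.8% or more unique words have ratios from 2.84 to 4.72, and the other 6 have ratios from 6.55 to 742.

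The members rose and fell together across livers. On the log2 scale after protein-coding rescaling, Pearson's r over the 9 livers was 0.53 to 0.98 (median 0.82) for the 36 pairs without *Mup10*. For the 9 pairs with *Mup10* it was 0.33 to 0.81 (median 0.67). These pairs share the livers and, for the similar members, most of their sequence.

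The summed level of the 10 members was 5232, 7235, 11049, 17781 and 8158 TPM in the apoC-III ASO livers and 31273, 10326, 20223 and 7258 TPM in the control ASO livers. The mean was 9891 ± 4883 TPM (SD, n = 5) against 17270 ± 10852 TPM (SD, n = 4). The mean log2 sum was lower by 0.71 with the apoC-III ASO, a geometric mean ratio of 0.613. The groups overlapped, with 3 apoC-III ASO livers above the lowest control ASO liver, and the difference was smaller than the pooled SD of 0.80 on the log2 scale. No test is given for a sum over chosen genes.

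The whole family adds *Gm21320* and *Mup9*, the second most abundant MUP gene, to the sum. The whole family sum was 9171, 12372, 13850, 19167 and 12508 TPM with the apoC-III ASO and 38395, 16459, 24861 and 12238 TPM with the control ASO. It was lower by 0.68 on the log2 scale with the apoC-III ASO. Of the protein-coding TPM, the family took 17.3%, 27.0%, 34.8%, 37.5% and 41.2% in the apoC-III ASO livers and 44.4%, 30.4%, 44.1% and 63.0% in the control ASO livers. The 3 highest shares were all in control ASO livers, and control ASO liver 2 lay among the apoC-III ASO livers. In control ASO liver 4, *Mup9* alone was 40.3% of the family, against 5.90% to 23.5% in the other 8 livers.

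**Figure D4:**
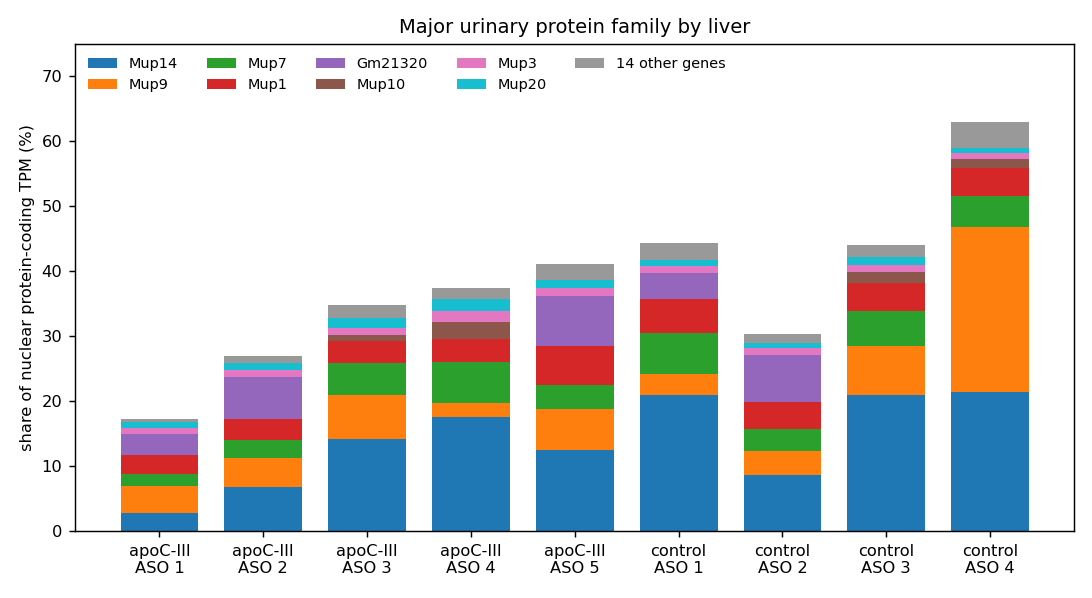
Share of nuclear protein-coding TPM taken by the 22 genes of the MUP family in each liver, as stacked bars for 8 named genes and the other 14 together. The total runs from 17.3% to 41.2% in the apoC-III ASO livers and from 30.4% to 63.0% in the control ASO livers.

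Within the family the proportions also moved. *Mup14* made up 16.6%, 25.2%, 40.8%, 46.7% and 30.4% of the family in the apoC-III ASO livers and 47.3%, 28.7%, 47.6% and 34.2% in the control ASO livers. *Mup20* made up 4.77%, 3.60%, 4.64%, 4.82% and 2.90% against 2.17%, 2.61%, 2.82% and 1.14%. The share of *Mup20* was the only one of the 10 members' shares whose groups did not overlap, it was noticed after the values were seen, and it was not tested. The pseudogene *Mup-ps19* shares 94.1% of its words with *Mup20*, and *Mup-ps19* was listed at 32.7 to 174 TPM with the apoC-III ASO and at 79.3 to 529 TPM with the control ASO. With the 2 genes added together the shares were 5.61%, 4.97%, 5.90%, 5.14% and 3.16% against 3.55%, 3.996%, 4.47% and 1.79%, and the groups overlapped.

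*Alb* was the other very abundant hepatocyte message used for reference. The sum of the 10 members divided by *Alb* was 1.83, 7.16, 14.8, 20.6 and 10.3 with the apoC-III ASO and 15.7, 8.41, 15.3 and 29.0 with the control ASO. The mean log2 ratio was lower by 0.89 with the apoC-III ASO, and the groups overlapped. ApoC-III ASO liver 1 had the lowest ratio, with the lowest MUP sum and the highest *Alb* of all livers (2855 TPM).

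No member was called different between the ASO groups. limma was run on log2(TPM + 1) over 4936 genes whose mean TPM reached 1, all 10 members among them. A gene was called if its change exceeded 1.5-fold and its p, adjusted by Benjamini-Hochberg over all genes tested, was under 0.05. The call was made for 0 of 10 members, beside 0.223% of all genes tested (11 genes), and the members' adjusted p ran from 0.588 to 0.9997. The groups did not overlap for 0 of 10 members, beside 0.223% of all genes. At an unadjusted p under 0.05 there were 2 of 10 members, both lower with the apoC-III ASO, beside 2.01% of all genes and 0.972% in that direction. With median-of-ratios scaling of all genes, 0 of 10 were called (beside 0.0451%), 0 of 10 had an unadjusted p under 0.05 (beside 5.52%, and 3.11% lower) and 0 of 10 had groups without overlap (beside 2.16%). After protein-coding rescaling the call was again made for 0 of 10 members, beside 0.0167% of the 11954 genes tested. There 0 of 10 had an unadjusted p under 0.05, beside 5.56% (2.58% lower), and 0 of 10 had groups that did not overlap, beside 1.83%.

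The 2 members with an unadjusted p under 0.05 were *Mup14* and *Mup10*. *Mup14* had a log2 fold change of -1.04 ± 0.37 (SE) in limma on TPM as deposited (unadjusted p = 0.0042, adjusted p = 0.588). *Mup10* had -1.77 ± 0.73 (SE) in limma (unadjusted p = 0.015, adjusted p = 0.9997). In this fit the SE comes wholly from genes of like level and not from the gene's own livers. An exact two-sided permutation test of the mean log2 value over the 126 splits of the 9 livers gave p = 0.159 for *Mup14* and p = 0.476 for *Mup10*, where the smallest p possible is 0.0159. After protein-coding rescaling the limma fold change was -1.38 ± 0.67 (SE) for *Mup14* and -2.37 ± 2.10 (SE) for *Mup10*, with adjusted p of 0.884 and 0.932. Without apoC-III ASO liver 4, in which *Mup10* was highest, *Mup10* was called lower with a log2 fold change of -3.10 (limma, adjusted p = 0.031). In that fit 8 genes were called higher and 5 lower among the 4935 tested, and the SE again came wholly from genes of like level. The sum of *Mup10* and *Gm21320* went the other way on TPM as deposited, with a mean log2 higher by 0.11 with the apoC-III ASO and overlapping groups. The direction of this sum depended on the scale. Protein-coding rescaling moved the log2 difference of the whole family sum from -0.68 to -1.02. The share of the 2 genes in the family is the same on both scales, and its mean log2 was higher by 0.79 with the apoC-III ASO. That rise is smaller than the fall of the rescaled family, so after rescaling the sum of the 2 genes was lower with the apoC-III ASO.

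The other similar members were all below 0 on both scales. Their log2 fold changes on TPM as deposited were -0.97 for *Mup17*, -0.83 for *Mup2*, -0.68 for *Mup11*, -0.54 for *Mup7* and -0.43 for *Mup1*, with SEs from 0.49 to 0.72. After protein-coding rescaling they were -1.32 for *Mup17*, -1.18 for *Mup2*, -1.04 for *Mup11*, -0.88 for *Mup7* and -0.77 for *Mup1*. The 3 members with distinct sequences lay closer to 0. *Mup3* was at 0.035 ± 0.63 (SE) and turned to -0.30 ± 0.35 (SE) after rescaling. *Mup20* was at 0.29 ± 0.63 (SE) and turned to -0.045 ± 0.38 (SE). With the similar pseudogene *Mup-ps19* added to *Mup20*, the difference of mean log2 on TPM as deposited was -0.11. *Mup21* was at -0.088 ± 0.73 (SE) and -0.43 ± 0.41 (SE) after rescaling.

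Control ASO liver 4 moved these values. Without it, the rescaled log2 fold changes were -0.26 for *Mup2*, -0.54 for *Mup1*, -0.64 for *Mup7*, -0.76 for *Mup11*, -0.91 for *Mup17*, -1.02 for *Mup14* and -1.28 for *Mup10*, and -0.025 for *Mup21*, -0.056 for *Mup3* and 0.095 for *Mup20*. On TPM as deposited without that liver they were -0.60 for *Mup2*, -0.88 for *Mup1*, -0.98 for *Mup7*, -1.08 for *Mup11*, -1.25 for *Mup17*, -1.36 for *Mup14* and -1.37 for *Mup10*, and -0.36 for *Mup21*, -0.40 for *Mup3* and -0.25 for *Mup20*. On the rescaled values 9 of 10 members came closer to 0 and *Mup20* changed sign. On TPM as deposited *Mup2* and *Mup10* came closer to 0, *Mup3* and *Mup20* changed sign and the other 6 moved further below 0.

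Counted by sign, 8 of 10 members were lower with the apoC-III ASO on TPM as deposited, beside 1443 of the 4936 genes tested, and the members' median log2 fold change was -0.61 beside 0.11 for all genes. After protein-coding rescaling 10 of 10 were lower, beside 5995 of 11954 genes, with a median of -0.96 beside -0.0012. The members move together and are not 10 separate observations. The 95% interval after rescaling ran from -2.85 to 0.085 for *Mup14* and from -0.88 to 0.79 for *Mup20*, so changes of more than 1.5-fold in either direction for *Mup20*, or a large decrease of *Mup14*, lie within what 9 livers allow.

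**Figure D5:**
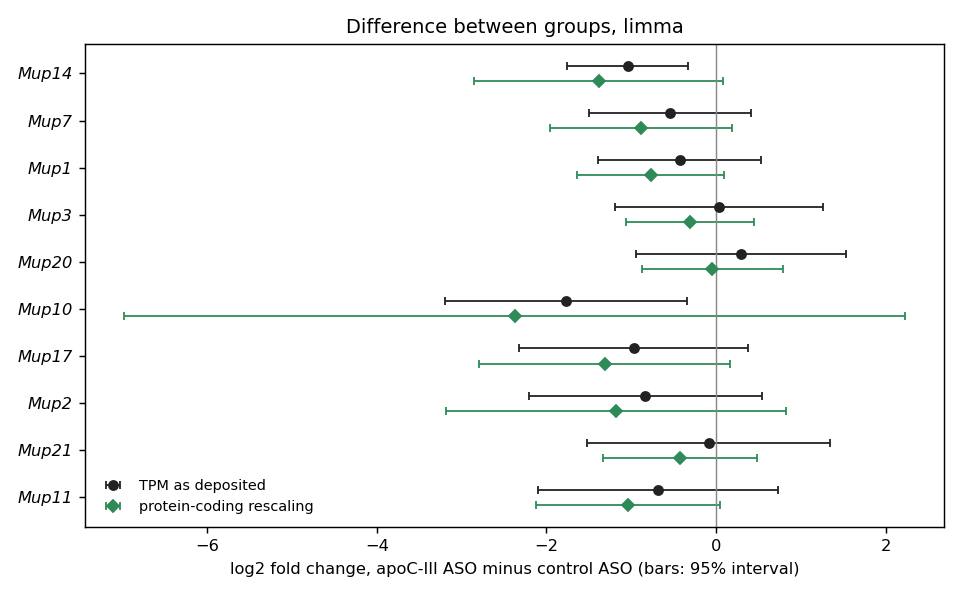
Log2 fold change (apoC-III ASO minus control ASO) of each member with its 95% interval from limma, on TPM as deposited and after protein-coding rescaling. After rescaling every interval includes 0, and on TPM as deposited those of *Mup14* and *Mup10* do not.

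Among the MUP genes outside the 10, *Mup9* was the most abundant, with 2153, 2071, 2700, 1131 and 1901 TPM in the apoC-III ASO livers and 2825, 2023, 4275 and 4928 TPM in the control ASO livers. limma gave *Mup9* a log2 fold change of -0.79 ± 0.45 (SE) with an adjusted p of 0.9997, and -1.13 after rescaling, which became -0.25 without control ASO liver 4. *Mup16* (-1.38), *Mup19* (-1.04), *Mup12* (-0.71), *Mup18* (-0.64) and *Mup8* (-0.47) were below 0 and *Mup13* was at 0.11, none of them called. *Mup4* and *Mup5*, known from nasal, lacrimal and salivary glands, had at most 0.465 and 0.562 TPM in any liver.

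The growth hormone pathway, which drives MUP transcription, showed no called gene. Of 14 listed genes 8 were tested on TPM as deposited, 4 higher and 4 lower with the apoC-III ASO, beside 70.8% of all genes tested higher. The largest changes were those of *Socs3*, a feedback inhibitor of cytokine receptors (0.70 ± 0.34 SE, limma adjusted p = 0.9997), and *Hnf4a*, a hepatocyte transcription factor (0.56 ± 0.61 SE). *Ghr* was at -0.026 ± 0.62 (SE). After protein-coding rescaling all 14 were tested, 9 were higher and 5 lower, beside 49.8% of all genes higher. On that scale *Socs3* was at 1.85 ± 0.83 (SE, limma adjusted p = 0.878) and 1.11 without control ASO liver 4, and *Stat5b* was at 0.81 ± 0.31 (SE, limma adjusted p = 0.876).

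Other genes known to be higher in male liver were not called either. Of 20 listed genes 15 were tested, 7 higher and 8 lower, beside 70.8% of all genes tested higher. The largest changes were those of *Elovl3*, a fatty acid elongase, at 1.41 ± 0.54 (SE, limma adjusted p = 0.933) and *Serpina1e*, a protease inhibitor, at -1.33 ± 0.72 (SE, limma adjusted p = 0.9997). Without apoC-III ASO liver 4, where *Serpina1e* was at 7.80 TPM against 85.5 to 247 TPM in the rest of its group, it was at -0.48. On the rescaled values 18 could be tested, and 3 of them were higher and 15 lower, beside 50.2% of all genes lower. Of 17 genes known to be higher in female liver none had a mean TPM of at least 1. After protein-coding rescaling 5 of these 17 could be tested, 1 higher and 4 lower, with a median log2 fold change of -0.50 and 0 called. The Y-linked *Ddx3y*, *Uty*, *Kdm5d* and *Eif2s3y* were above 0 in all 9 livers (0.218 to 6.36 TPM) and *Xist* was at most 0.232 TPM.

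The MUPs were also set beside other lipocalins and other secreted proteins of the hepatocyte. Of 10 other lipocalins 6 were tested and all 6 were above 0, led by the complement subunit *C8g* (0.59 ± 0.65 SE) and the acute phase protein *Orm1* (0.50 ± 0.67 SE), with 0 called, beside 70.8% of all genes tested above 0. After protein-coding rescaling 7 of 9 were above 0, beside 49.8% of all genes. Of 20 abundant secreted proteins 12 were above 0 and 8 below, led by *Serpina1d* (-0.80 ± 0.73 SE, and -0.29 without apoC-III ASO liver 4) and *Serpina1c* (-0.48 ± 0.72 SE), again with 0 called. After protein-coding rescaling 18 of the 20 were below 0, with a median log2 fold change of -0.27, beside -0.96 for the 10 MUPs.

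Markers of the liver's cell types were checked over the same livers. The 8 hepatocyte markers summed to 1170 to 3873 TPM with the apoC-III ASO and to 459 to 3150 TPM with the control ASO. The 8 macrophage and leukocyte markers summed to 2.68 to 7.75 and 0.766 to 5.54 TPM, the 6 endothelial markers to 3.84 to 8.94 and 0.766 to 7.70 TPM, the 6 stellate cell markers to 4.16 to 8.96 and 2.47 to 10.8 TPM and the 6 cholangiocyte markers to 1.90 to 5.39 and 1.16 to 6.01 TPM. The direction depended on the scale. On TPM as deposited 6 of 8 hepatocyte markers were higher with the apoC-III ASO (median log2 fold change 0.11), as were 2 of the 3 stellate cell markers tested. After protein-coding rescaling 6 of 8 hepatocyte markers were lower (median -0.22), as were 5 of 6 stellate cell markers (median -0.39). In limma 2 stellate cell markers had an unadjusted p under 0.05, both lower, beside 5.56% of all genes (2.58% lower). On that scale 4 of 6 endothelial markers were higher (median 0.11), and macrophage and leukocyte markers were 3 higher and 3 lower. The members' median there was -0.96, and the part of these cell types in the members' values was not tested. All 6 markers of kidney, lacrimal and salivary tissue were at 0 in every liver. Fewer hepatocytes and less MUP message per hepatocyte cannot be told apart in whole liver.

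The genes whose levels followed the sum of the 10 members most closely were ranked by Pearson's r over the 9 livers, after protein-coding rescaling, among 8579 genes outside the family. They were *Cpq*, a secreted carboxypeptidase (r = 0.97), *Usmg5*, a small subunit of the mitochondrial ATP synthase (0.96), *Ndufaf1*, an assembly factor of complex I (0.95), *Coq9*, of coenzyme Q synthesis (0.93), *Pdk2*, a pyruvate dehydrogenase kinase (0.92), *Cfhr2*, related to complement factor H (0.92), *Mcts1* (0.91) and *Xkr9* (0.91). Correlations picked as the highest of many are high by selection, and no p is given. *Alb* had an r of -0.068 with the sum.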

How the data were processed

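The values are TPM for each gene, as deposited by the authors. The submitters' notes name kallisto 0.43.1 and GRCm38. Libraries were single-end, stranded and ribosome-depleted, and the published test used STAR, featureCounts and DESeq2 counts, not used here. TPM gives no depth. Identifiers were matched to GENCODE M21 (51633 of 51912). Members and gene lists were chosen with earlier results of these data known. The labels number the samples without saying that each is from its own mouse, so p-values refer to samples and not to a known number of mice. In the main limma fit, on TPM as deposited, the variance came wholly from genes of like level. After protein-coding rescaling it came from these and from the gene's own samples.

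Tests used limma 3.58.1 in R 4.3.3 (lmFit, eBayes with trend) on log2(TPM + 1), a scale on which the pseudocount of 1 understates changes of low genes, without covariates, where the mean TPM was 1 or more. Fold changes of named genes are on this scale. Protein-coding rescaling set the nuclear protein-coding TPM of a liver to 1000000 before a median-of-ratios factor over 12256 genes. Sums were described and not tested. Words of 31 bases (kallisto's default) were counted over 141767 GENCODE M21 transcripts, and promoters came from RefSeq (GRCm38.p6). Named genes were the 10 members, other MUP symbols with a mean TPM of at least 1, *Alb*, *Apoc3*, the 2 largest changes and any called gene of each list, and the 8 best correlates. Genes named outside this rule (*Gm21320*, *Mup-ps19*, *Mup4*, *Mup5*, *Ghr*, *Stat5b*, sex-linked genes and 7SL) were added after their values were seen. Other tools were biopython 1.88, matplotlib 3.10.9, scipy 1.17.1, pandas 2.3.3 and numpy 2.4.6 under Python 3.11.15.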

Additional observations from a re-analysis of the deposited data

Results flagged for a closer look

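Each group of 4 or 5 livers was checked for 1 liver far from the others (the gap to the nearest liver as a fraction of the group's range, against Dixon's 95% critical value), in 48 groups of values, of which 4 had such a liver. Chance gives about 5% of groups.

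*Mup10* in apoC-III ASO liver 4 was at 1360 TPM, with the other 4 livers of its group at 1.05 to 382 TPM. *Mup13* in apoC-III ASO liver 1 was at 44.4 TPM, with the others at 4.79 to 10.2 TPM. *Alb* in apoC-III ASO liver 1 was at 2855 TPM, with the others at 748 to 1010 TPM. The share of protein-coding TPM taken by the 10 members in control ASO liver 2 was 19.0%, with the other control ASO livers at 35.9% to 37.4%. For the whole family the control ASO shares were 44.4%, 30.4%, 44.1% and 63.0%, and the same check flagged no liver.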

How the results depend on the processing

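No member was called higher under any setting tried. Without apoC-III ASO liver 4, 1 member was called lower (*Mup10*, at -3.10), and in every other setting 0 were. Leaving out 1 liver thus gave 0 to 1 calls. Without apoC-III ASO liver 4, which had the highest *Mup10*, 8 genes were called higher and 5 lower among the 4935 tested. The SE in that fit came wholly from genes of like level. The difference of the summed 10 members stayed below 0 in every setting, at -1.05 to -0.34 with 1 liver left out. It was -1.05 after protein-coding rescaling and -0.70 when control ASO liver 4 was left out as well. *Mup10* ran from -3.10 to -0.76 with 1 liver left out. Without control ASO liver 4, 10 of 10 members were lower (beside 83.8% of all genes) and 5 had an unadjusted p under 0.05 in limma (beside 5.47%). With array weights 3 members had one (beside 9.91%). With no filter on low values, with robust eBayes and with median-of-ratios scaling 0 had one, beside 1.82%, 1.48% and 5.52% of all genes. *Apoc3* was not called on TPM as deposited (-2.62) and was called after rescaling (-3.01) and with median-of-ratios scaling (-2.95).

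Log2 fold changes of 8 named genes changed sign. Under median-of-ratios scaling they were -0.30 for *Mup3*, -0.041 for *Mup20*, -0.17 for *Mup13* and -0.15 for *Alb*. After protein-coding rescaling they were -0.30, -0.045, -0.22 and -0.15 in the same order, and with control ASO liver 4 also left out -0.056 for *Mup3*, -0.11 for *Alb* and 0.073 for *Mup8*. Without apoC-III ASO liver 1 (chosen after seeing the data), rescaled values were -0.19 for *Mup3*, -0.61 for *Mup13* and -0.38 for *Alb*. With array weights they were -0.20 for *Mup3*, -0.26 for *Mup13*, -0.38 for *Alb* and -0.00022 for *Orm1*. With 1 liver left out the range was -0.40 to 0.35 for *Mup3*, -0.25 to 0.61 for *Mup20*, -0.36 to 0.18 for *Mup21*, -0.38 to 0.48 for *Mup13*, -0.45 to 0.54 for *Alb*, -0.14 to 0.88 for *Hnf4a* and -0.23 to 0.92 for *Orm1*. The causes were not tested.

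Samples of the groups share replicate numbers. On TPM as deposited, same-numbered livers deviated from their group means with correlations of 0.017, 0.10, 0.13 and 0.057. Livers of unlike number had -0.22 to 0.27. After protein-coding rescaling the same-numbered livers had 0.066, 0.12, 0.026 and 0.19, against -0.21 to 0.18 for unlike numbers. These values do not settle whether the numbers mark pairs. The labels name no pairing, so the main fit took none. With the number as a replicate block, which leaves apoC-III ASO liver 5 without weight, 0 members were called, *Mup21* was at 0.18, and the calls over all genes went from 5 higher and 6 lower to 15 higher and 11 lower. With the replicate block after rescaling, 0 members were called, 7 of 10 had an unadjusted p under 0.05 (beside 7.80% of all genes, and 5.56% with 0 members without the block), and values were -0.37 for *Mup3*, -0.11 for *Mup20*, -0.41 for *Mup13* and -0.24 for *Alb*. TPM keeps no depth, so counting error could not be separated from differences between livers, and near-identical copies limit every value of a single similar member.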
